A study of Rattus norvegicus with 13 samples.

Results

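*Gap43*, *Basp1*, *Marcks*, *Marcksl1*, *Nrep*, *Sprr1a*, *Rtn2* and *Gpm6a* are 8 genes tied to axon growth. Their messenger RNA was followed in axons and in the neuronal compartment of cultures of rat cortical neurons. They were read from every probe set (a group of short probes that report 1 transcript) whose only gene symbol in the platform annotation is one of these 8. This gave 15 of 31042 probe sets that are not controls, and 8 of 14217 named genes. *Gap43* and *Basp1* have 2 probe sets each, *Marcks* has 6 and the other 5 genes have 1 each. The genes were chosen by their known roles and, for *Nrep*, by its measured fall in regenerating axons. Their values in that comparison are thus a description and carry no test. These genes, and the gene lists read further on, were also chosen with earlier results of these data known. The p-values given for the genes in neurons, and for the lists, therefore do not come from an independent choice.

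The neurons were kept for 13 days in a compartmentalised microfluidic device, in which axons grow into a chamber of their own, in Neurobasal E medium with B27. Uninjured axons gave 7 arrays from 3 culture batches, regenerating axons, cut on day 11 and left to regrow for 2 days, gave 3, and neurons taken from the neuronal compartment gave 3. Each array held material from 3 devices, and the polyadenylated RNA was amplified in 2 rounds. Strain and animal age are not given in the sources used here, and neither is which array came from which batch. Nothing in the labels says that the arrays of a group were separate cultures, so p-values measure the spread between these arrays, which may be technical.

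Each value is a ratio and not a signal level. In every row the median of uninjured arrays 1, 2 and 3 is 1, as is that of arrays 4, 5 and 6, so the median of these 6 arrays is 1 by construction. Array 7 reads 1 in all rows and holds no measurement, which leaves 12 measured arrays. The denominator of the regenerating and neuron arrays is not stated. Here uninjured axons are assumed to be that denominator, and each direction against them depends on this assumption. Without a signal level, faint and abundant transcripts cannot be told apart. In bulk material, fewer axons and less RNA per axon cannot be told apart either. Both comparisons with uninjured axons share that reference, so they are not independent of each other.

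As background, GAP-43, BASP1, MARCKS and MARCKSL1 are acidic, unfolded proteins held at the inner face of the plasma membrane by lipid anchors. They bind phosphoinositide lipids, calmodulin or actin, and protein kinase C releases MARCKS from the membrane. GAP-43 is a classic growth cone protein, and its messenger RNA is carried into axons. GPM6A is a proteolipid that spans the membrane and promotes filopodia, and RTN2 is a reticulon, a family that shapes tubules of the endoplasmic reticulum. The other two are not membrane proteins in the usual sense. NREP, also known as P311, is a small intracellular protein found in regenerating motor neurons, and SPRR1A is a precursor of the cornified envelope of skin that injured sensory neurons also make.

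The promoters of 4 genes are printed. *Nrep*, *Gpm6a* and *Rtn2* had the lowest gene values in regenerating axons among the members with a promoter at hand, and *Sprr1a* was the member that passed as higher in axons than in neurons. They are from RefSeq (GRCr8), which holds promoters for 7 of the 8 genes, each with 250 bases before and 50 after the annotated start. They lie at chr18:25320693-25320992 (*Nrep*, minus strand), chr16:43706412-43706711 (*Gpm6a*, minus strand), chr1:88063042-88063341 (*Rtn2*, plus strand) and chr2:180752576-180752875 (*Sprr1a*, minus strand). Capitals mark the GC box GGGCGG, the AP-1 motif TGANTCA and the TATA motif TATAAA, searched on both strands.
Nrep: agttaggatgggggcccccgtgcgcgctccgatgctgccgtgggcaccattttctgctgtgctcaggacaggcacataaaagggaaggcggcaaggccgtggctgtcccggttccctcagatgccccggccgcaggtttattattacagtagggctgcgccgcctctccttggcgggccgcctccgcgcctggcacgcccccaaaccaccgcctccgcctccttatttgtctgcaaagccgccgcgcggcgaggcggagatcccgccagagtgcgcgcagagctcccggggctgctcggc
Gpm6a: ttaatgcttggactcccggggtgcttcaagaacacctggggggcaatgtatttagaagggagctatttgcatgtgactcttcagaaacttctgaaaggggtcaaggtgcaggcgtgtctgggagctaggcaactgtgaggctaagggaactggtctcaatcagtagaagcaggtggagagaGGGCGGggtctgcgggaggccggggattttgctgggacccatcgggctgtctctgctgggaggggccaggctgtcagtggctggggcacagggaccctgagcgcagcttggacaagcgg
Rtn2: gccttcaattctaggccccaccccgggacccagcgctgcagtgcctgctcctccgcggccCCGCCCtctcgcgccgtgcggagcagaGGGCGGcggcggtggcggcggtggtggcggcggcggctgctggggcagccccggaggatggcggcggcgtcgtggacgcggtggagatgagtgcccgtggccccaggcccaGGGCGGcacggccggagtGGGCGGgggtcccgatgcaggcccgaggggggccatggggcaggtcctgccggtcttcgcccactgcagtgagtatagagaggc
Sprr1a: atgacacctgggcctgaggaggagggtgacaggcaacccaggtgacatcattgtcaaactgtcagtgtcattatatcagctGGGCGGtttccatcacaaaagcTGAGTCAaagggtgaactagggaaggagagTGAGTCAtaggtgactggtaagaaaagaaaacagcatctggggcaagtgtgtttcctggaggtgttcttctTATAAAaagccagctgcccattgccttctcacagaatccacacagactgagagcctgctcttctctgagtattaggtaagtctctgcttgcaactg
The *Sprr1a* window held 2 AP-1 matches, both TGAGTCA, whose first bases lie at -147 and -117 from the start, with 1 GC box and 1 TATA motif. The *Rtn2* window held 4 GC boxes, the *Gpm6a* window held 1, and in the *Nrep* window no letters matched. Of 33469 rat promoters of the same length, 7.33% held the AP-1 motif, 33.1% the GC box and 14.2% the TATA motif. Among the promoters not printed, *Basp1* (chr2:77594248-77594547) held 4 GC boxes, *Marcksl1* (chr5:147135577-147135876) held 3 and *Marcks* (chr20:42245833-42246132) held no match. A match is only a stretch of letters and does not show that a factor binds there.

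In regenerating axons, the question was how these transcripts stood 2 days after the cut. *Nrep*, *Gpm6a*, 1 probe set of *Gap43* and *Rtn2* had the lowest ratios, with means between 29.2-fold and 8.50-fold below uninjured axons. *Basp1* 1369310_at, *Marcksl1* and 3 of 6 *Marcks* probe sets lay between 1.98-fold and 3.61-fold lower, and *Sprr1a* stood at the uninjured level. All 3 regenerating arrays lay below all 6 uninjured arrays in 7 of 15 probe sets, where 10.9% of all probe sets did so, and the remaining 8 overlapped. The mean was at least 2-fold lower in 8 of 15, against 4.21% of all probe sets. *Marcksl1*, at 2.04-fold, was just inside that limit and *Basp1* 1369310_at, at 1.98-fold, just outside. The median log2 ratio of the 15 was -1.03, beside 0.03 over all probe sets. In the fit across all probe sets 0.335% passed as lower, a share given here for scale, and nothing is read from these shares because the choice of *Nrep* used this contrast.

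**Figure D1:**
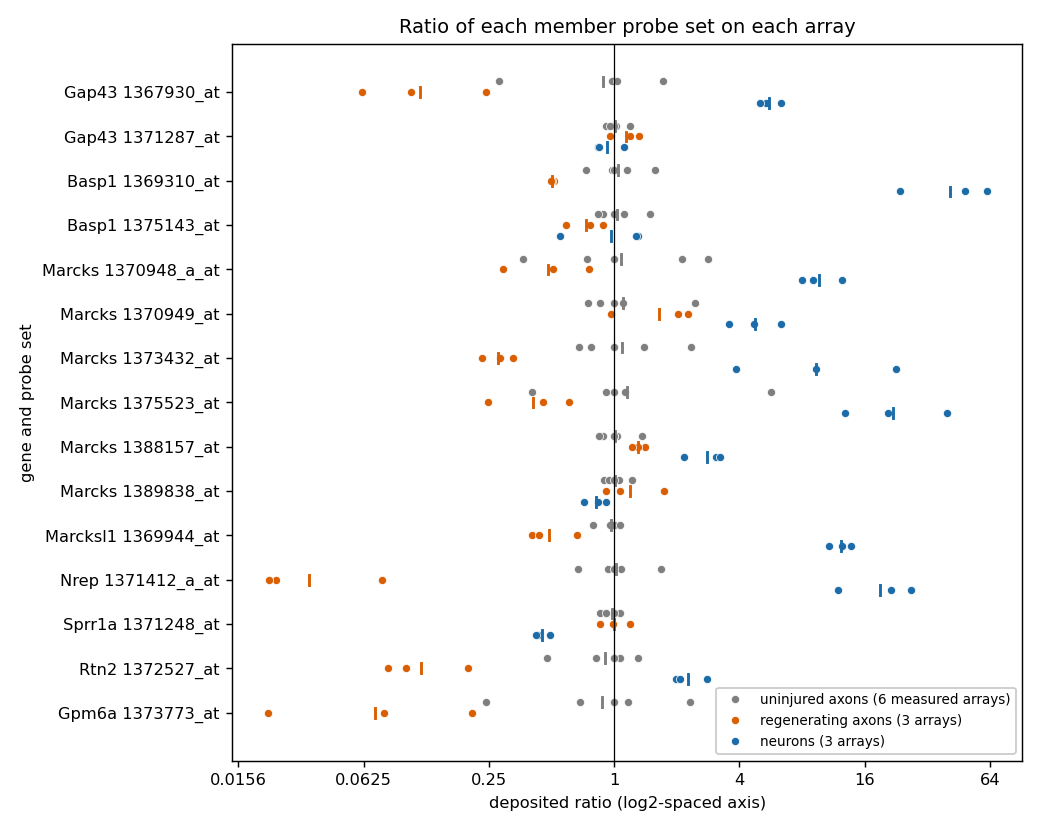
Deposited ratio (log2-spaced axis) of each of the 15 probe sets on 6 uninjured (grey), 3 regenerating (orange) and 3 neuron (blue) arrays; points are arrays and short bars are means of log2 ratios. Regenerating *Nrep* lies between 0.0220 and 0.0765, left of all uninjured points, and neuron *Basp1* 1369310_at reaches 61.6 at the right.

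*Nrep* read 0.0765, 0.0238 and 0.0220 in regenerating arrays 1, 2 and 3, while the uninjured arrays lay between 0.673 and 1.68. The groups did not overlap, and array 1 was the highest of the 3 regenerating arrays. The mean log2 ratio was -4.87 ± 1.01 (SD, n = 3), or 29.2-fold lower. Among probe sets with a single symbol this was the 5th lowest mean, after *Apc2* at -5.12, *Eif3f* at -5.06, *Apc* at -5.01 and *Rpl3* at -4.89. These 4 genes were named after their values were seen. Adding 0.1 to every ratio, which damps low values, brought *Nrep* to -2.99.

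*Gpm6a* was read at 0.207, 0.0785 and 0.0218 in regenerating arrays 1 to 3, against 0.242 to 2.32 in uninjured axons. The groups did not overlap, but uninjured array 1, at 0.242, was close to regenerating array 1. The mean was -3.82 ± 1.63 (SD, n = 3) on the log2 scale, 14.1-fold lower, with the widest spread among the regenerating members. With 0.1 added to each ratio the mean became -2.55.

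*Rtn2* read 0.199, 0.0998 and 0.0819 in the 3 regenerating arrays, and 0.474 to 1.30 in uninjured axons. No regenerating array reached the lowest uninjured array, which was again array 1. The mean log2 ratio was -3.09 ± 0.67 (SD, n = 3), 8.50-fold lower, and -2.31 with 0.1 added to each ratio.

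*Gap43* gave a different answer with each of its probe sets. Probe set 1367930_at read 0.242, 0.106 and 0.0615 in regenerating arrays 1 to 3 and 0.281 to 1.72 in uninjured axons, a mean of -3.10 ± 0.99 (SD, n = 3), 8.59-fold lower. With 0.1 added to each ratio this mean was -2.29. Its lowest uninjured value, in array 1, lay just above the highest regenerating value. Probe set 1371287_at read 1.32, 0.954 and 1.19, within and slightly above the uninjured range of 0.911 to 1.20, with a mean of 0.20 ± 0.24 (SD, n = 3). Where on the transcript the probe sets lie is not given in the sources used here, so a statement about the gene as a whole depends on which is read.

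**Figure D2:**
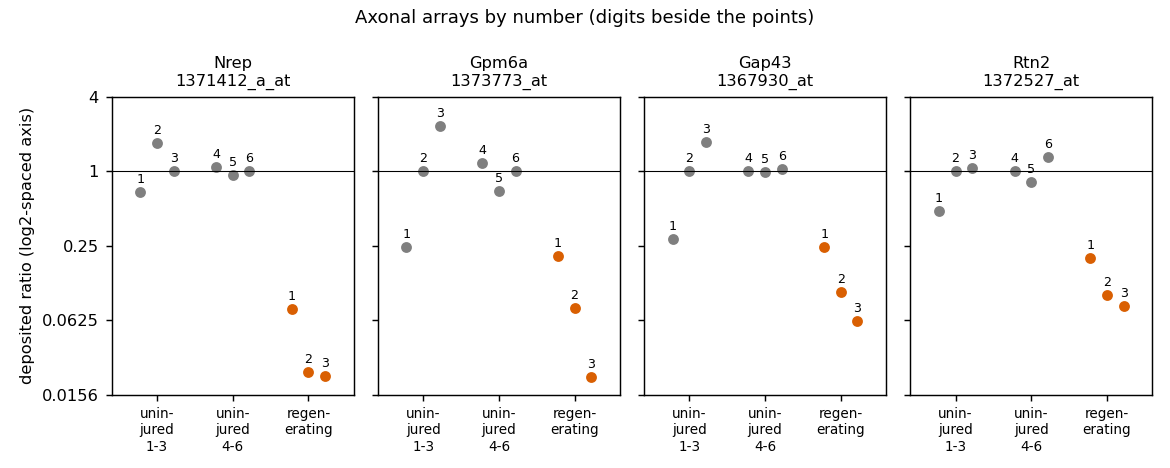
Deposited ratio (log2-spaced axis) of the 4 probe sets with the lowest regenerating means on each axonal array, with array numbers beside the points and the uninjured arrays in their 2 ratio sets. Regenerating array 1 is the highest of its group in all 4 panels, and uninjured array 1 is the lowest uninjured array in all 4.

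These 4 probe sets ordered the arrays alike. Regenerating array 1 had the highest regenerating ratio of *Nrep*, *Gpm6a*, *Rtn2* and *Gap43* 1367930_at, and array 3 the lowest. Control probe sets of the housekeeping gene GAPDH were also low in these arrays, and highest in array 1. Its 3′ probe set read 0.355, 0.159 and 0.142 in the regenerating arrays and 0.620 in uninjured array 1, its 5′ probe set read 0.496, 0.350 and 0.250, and its middle probe set 0.384, 0.138 and 0.209, where array 2 was the lowest. The 3′ beta-actin control read 0.81, 0.69 and 0.63, in the same order as the members. The middle beta-actin control, at 0.840, 0.699 and 0.877, and the 5′ one, at 0.796, 1.07 and 0.824, had other orders. Hybridisation controls, transcripts not made by the cells, had geometric mean ratios of 1.16, 1.37 and 1.55 over 18 probe sets in regenerating arrays 1 to 3. In the uninjured arrays these ratios were 0.931 to 1.12. The part of these control values in the low member ratios was not tested.

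The other lipid-anchored members are *Basp1*, *Marcksl1* and *Marcks*. *Basp1* 1369310_at read 0.514, 0.504 and 0.499 in the regenerating arrays, below the uninjured range of 0.731 to 1.57 and with the tightest spread of all 15, at -0.98 ± 0.02 (SD, n = 3). *Basp1* 1375143_at read 0.880, 0.765 and 0.587, which overlapped its uninjured range of 0.837 to 1.49. *Marcksl1*, whose protein shares the calmodulin- and actin-binding domain of MARCKS, read 0.662, 0.405 and 0.437. All 3 values lay below the uninjured range of 0.789 to 1.07, and the mean was -1.03 ± 0.38 (SD, n = 3).

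*Marcks*, the gene with most probe sets, was spread to both sides of 1. Probe set 1373432_at, at 0.282, 0.232 and 0.325, was the only *Marcks* probe set whose regenerating arrays all lay below the uninjured ones (0.681 to 2.35), with a mean of -1.85 ± 0.24 (SD, n = 3). Probe sets 1375523_at (0.248, 0.453 and 0.609) and 1370948_a_at (0.292, 0.511 and 0.755) had means of -1.29 ± 0.66 and -1.05 ± 0.69 (SD, n = 3). Both overlapped uninjured axons, whose own values ran from 0.402 to 5.66 and from 0.364 to 2.81. The means of the other 3 were above 1: 1370949_at read 0.963, 2.03 and 2.27, 1388157_at read 1.40, 1.31 and 1.22, and 1389838_at read 1.73, 1.06 and 0.917. Each of these 3 overlapped the uninjured arrays.

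**Figure D3:**
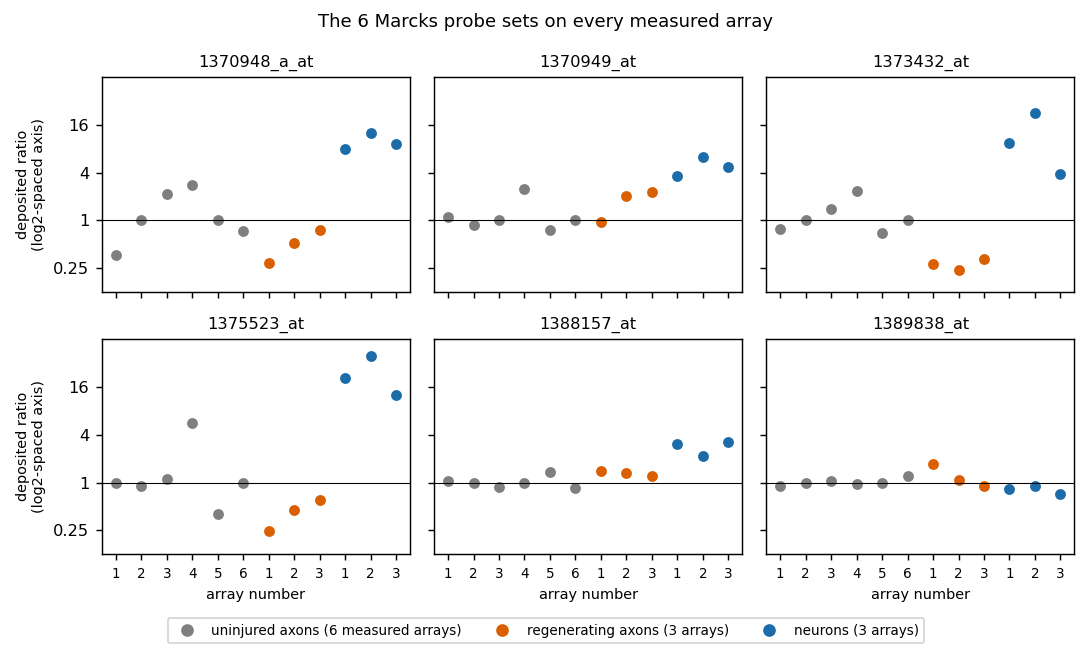
Deposited ratio (log2-spaced axis) of the 6 *Marcks* probe sets on each measured array, by array number, in uninjured axons (grey), regenerating axons (orange) and neurons (blue). Neurons are above all uninjured arrays in 5 panels and not in 1389838_at, and the regenerating arrays lie below all uninjured arrays only in 1373432_at.

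*Sprr1a*, a gene known for its rise in injured peripheral neurons, read 0.983, 1.19 and 0.852 in regenerating axons and 0.860 to 1.07 in uninjured axons. The groups overlapped, and the mean log2 ratio was -0.00 ± 0.24 (SD, n = 3).

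Neurons were set against uninjured axons to see which transcripts stood relatively higher in the neuronal compartment. Most members did. *Nrep*, *Marcksl1*, *Rtn2*, 1 of 2 probe sets each of *Basp1* and *Gap43* and 5 of 6 of *Marcks* were higher in neurons, by 2.26-fold to 41.4-fold, and *Sprr1a* was 2.23-fold higher in axons. In the limma fit over 31042 probe sets, 10 of 15 passed an adjusted p of 0.05 as higher in neurons, beside 28.4% of all probe sets, and 1 passed as higher in uninjured axons, beside 27.5%. The other 4 did not pass. All 3 neuron arrays lay above all 6 uninjured arrays in 11 of 15 probe sets (33.1% of all) and below them in 1 (36.8% of all). The median log2 ratio of the 15 was 2.25, against -0.07 over all probe sets and 0.16 over the 20826 with 1 symbol, as all 15 have. When only those 20826 were fitted, 7121 passed as higher in neurons and 4526 as higher in uninjured axons. Errors below are standard errors of the fit (SE), which assigns the reference the error of 1 array.

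**Figure D4:**
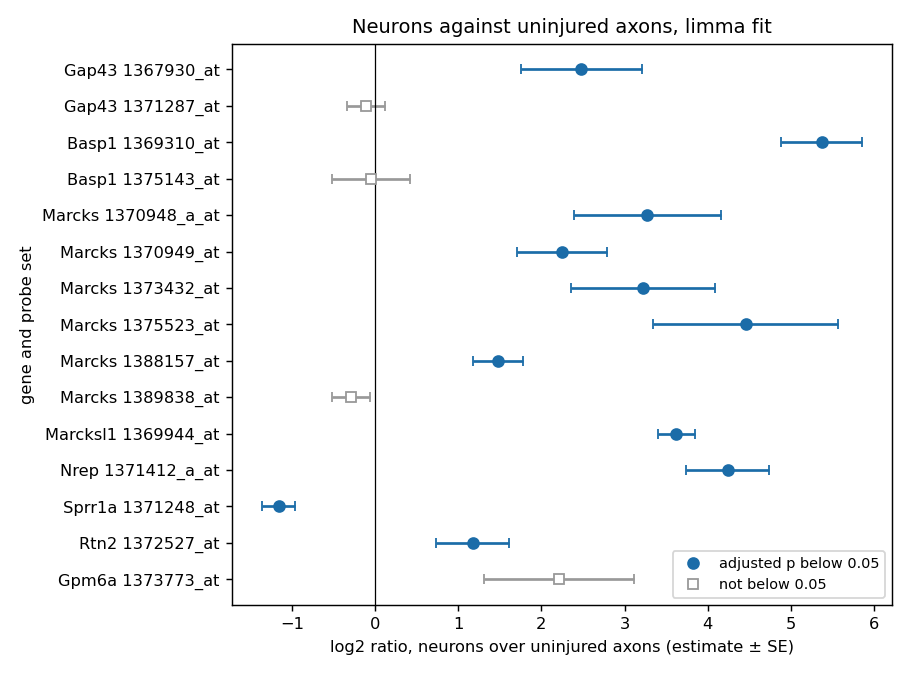
Fitted log2 ratio of neurons over uninjured axons (point) with 1 SE (bar) for each of the 15 probe sets; filled circles passed an adjusted p of 0.05 and open squares did not. *Basp1* 1369310_at is highest at 5.37, *Sprr1a* is the only filled point below 0, at -1.16, and *Gpm6a* is open at 2.22.

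*Basp1* 1369310_at read 48.6, 23.6 and 61.6 in neuron arrays 1 to 3, against at most 1.57 in any uninjured array. This was the 105th highest neuron mean of 31042 probe sets, at 5.37 ± 0.49 (SE, n = 3, adjusted p = 2.80e-05), 41.4-fold higher. The second *Basp1* probe set, 1375143_at, read 1.30, 1.27 and 0.548, and its neuron arrays fell on both sides of 1. Its fitted value was -0.05 ± 0.47 (SE, n = 3, adjusted p = 0.939).

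*Nrep* read 21.3, 11.9 and 26.6 in neurons, with no uninjured array above 1.68. It was 18.9-fold higher, at 4.24 ± 0.50 (SE, n = 3, adjusted p = 0.000120). *Marcksl1* read 12.5, 10.8 and 13.8, close together and far above the uninjured maximum of 1.07. It was 12.3-fold higher, at 3.62 ± 0.22 (SE, n = 3, adjusted p = 4.60e-06), with the smallest adjusted p of the members. Neuron array 2 was the lowest of the 3 for *Basp1* 1369310_at, *Nrep* and *Marcksl1*. The hybridisation controls read 0.356, 1.05 and 0.197 in neuron arrays 1 to 3, highest in array 2. The GAPDH and beta-actin controls were also high in neurons, with ratios from 7.19 to 179, and each was lowest in array 2. The 3′ GAPDH control read 13.7, 7.19 and 16.6 in neuron arrays 1 to 3, and the 3′ beta-actin control 71.2, 38.4 and 80.1. The part of all these controls in the member differences was not tested.

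*Gap43* 1367930_at read 6.37, 5.38 and 5.04 in neurons and at most 1.72 in uninjured axons, without overlap. It was 5.57-fold higher, at 2.48 ± 0.73 (SE, n = 3, adjusted p = 0.0161). Probe set 1371287_at read 0.833, 1.12 and 0.851 in neurons, which overlapped uninjured axons, and was fitted at -0.11 ± 0.23 (SE, n = 3, adjusted p = 0.696). The probe set that was low in regenerating axons was thus the same that was high in neurons, and the other stayed near 1 in all 3 groups.

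*Marcks* was higher in neurons by 5 of its 6 probe sets. The highest was 1375523_at, at 20.6, 40.0 and 12.8, with a fitted 4.46 ± 1.11 (SE, n = 3, adjusted p = 0.00778). Probe set 1373432_at read 9.34, 22.6 and 3.87, and 1370948_a_at read 7.97, 12.5 and 9.04, and they were 9.35-fold and 9.65-fold higher (adjusted p = 0.0107 and 0.0111). Unlike for *Basp1*, *Nrep* and *Marcksl1*, neuron array 2 was the highest of the 3 here. Lower rises came from 1370949_at (3.58, 6.34 and 4.71), which was 4.75-fold higher (adjusted p = 0.00683), and from 1388157_at (3.10, 2.17 and 3.22), which was 2.79-fold higher (adjusted p = 0.00288). Probe set 1389838_at read 0.835, 0.917 and 0.716, and did not pass, at -0.29 ± 0.22 (SE, n = 3, adjusted p = 0.290).

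The membrane-spanning members were both above their uninjured arrays in neurons, and 1 of them passed. *Rtn2* read 1.98, 2.07 and 2.80 in neurons, above the uninjured maximum of 1.30, and was 2.26-fold higher at 1.18 ± 0.44 (SE, n = 3, adjusted p = 0.0436). This call was lost without neuron array 1 (adjusted p = 0.0590), neuron array 3 (0.0965), uninjured array 2 (0.0506) or uninjured array 4 (0.0553). *Gpm6a* read 4.56, 4.98 and 4.42, all above the uninjured maximum of 2.32, but did not pass at 2.22 ± 0.90 (SE, n = 3, adjusted p = 0.0592). Its uninjured arrays were wide apart, and it passed as higher in neurons without uninjured array 1 (0.00338) or array 3 (0.0179).

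*Sprr1a* went the other way. Its neuron arrays read 0.433, 0.491 and 0.423, all below the uninjured minimum of 0.860, and the fitted value was -1.16 ± 0.20 (SE, n = 3, adjusted p = 0.00107). Such a ratio does not show that the transcript was present in axons above background.

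Averaged over the probe sets of a gene, 6 of 8 genes passed as higher in neurons, beside 36.9% of 14217 genes, 1 (*Sprr1a*) as higher in axons, beside 23% of genes, and *Gpm6a* did not pass. *Marcks* had a gene mean of 2.40 ± 0.49, *Basp1* of 2.66 ± 0.31 and *Gap43* of 1.18 ± 0.39 (SE, n = 3). The call of *Gap43* (adjusted p = 0.0260) was lost without neuron array 1 (0.0531). These means join probe sets that disagree, as described for *Gap43* and *Basp1*.

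Neurons were set against regenerating axons as the neuron mean minus the regenerating mean on the log2 scale. This holds provided that both groups were divided by the same reference, which is not stated. Only for probe sets low in regenerating axons and high in neurons do both differences add up. All 3 neuron arrays lay above all 3 regenerating arrays in 11 of 15 probe sets (36.9% of all) and below in 1, *Sprr1a* (40.4% of all). *Nrep* had the widest gap, at 9.11 on the log2 scale or 553-fold. *Basp1* 1369310_at followed at 6.35 (81.8-fold), *Gpm6a* at 6.04 (65.6-fold), *Marcks* 1375523_at at 5.75 (53.7-fold) and *Gap43* 1367930_at at 5.58 (47.9-fold). *Rtn2* differed by 4.26, or 19.2-fold. Its regenerating mean lay farther from 1 than its neuron mean, while for *Basp1* 1369310_at it was the neuron mean that lay farther. These differences were not tested, since the regenerating values entered the choice of genes.

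The spread among uninjured axons was wide for several members. The median SD of log2 ratios about the mean of each ratio set was 0.48 over the 15 probe sets and 0.21 over all. It reached 1.37 for *Marcks* 1375523_at, 1.20 for *Gpm6a*, 1.15 for *Marcks* 1370948_a_at and 0.95 for *Gap43* 1367930_at. Array 1 was the lowest of arrays 1 to 3 in 8 of 15, where it was so in 36.7% of all rows, and array 3 the highest in 11 of 15, against 32.3% of all rows. Array 5 was the lowest of arrays 4 to 6 in 9 of 15, against 31.5% of all rows. Leaving out any 1 array, 7 to 8 of the 15 probe sets still had all regenerating arrays below the uninjured ones, and 11 had all neuron arrays above them.

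Likeness of pattern was measured as the root mean square difference in log2 ratio over the 12 measured arrays, against 20566 probe sets of other named genes. The nearest to *Nrep* were the tubulin gene *Tubb2a* at 0.75, the elongation factor gene *Eef1a1* at 0.76 and *Zwint* at 0.79. *Gap43* 1367930_at was nearest to *Arpc2*, which encodes a subunit of the actin-branching Arp2/3 complex, at 0.33, then to *Anapc5* and *Pcbp2*, both at 0.37. *Gpm6a* shared *Arpc2* as its nearest, at 0.44, and *Gap43* 1367930_at came next at 0.52, before *Anapc5* at 0.57. *Rtn2* was nearest to *Mapk8ip1* (0.33), whose product is a scaffold on kinesin cargo, *Cisd1* (0.36) and *Mrpl27* (0.39).

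*Basp1* 1369310_at was nearest to *Ap2m1*, a clathrin adaptor gene, at 0.20, then to the tau gene *Mapt* at 0.29 and the prion protein gene *Prnp* at 0.32. *Marcksl1* was nearest to *Rab11a* and *Mtch1*, both at 0.21, and to *Tcf25* at 0.22. *Marcks* 1375523_at was nearest to *Ssr3* (0.41), the synaptic vesicle gene *Sv2b* (0.45) and *Apeg3* (0.54). For *Sprr1a* the distances were 0.093 to *Plbd1*, 0.095 to *Zfp217* and 0.098 to *Trmt44*. Distances are small for probe sets whose ratios move little, so they do not compare between members.

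Other genes of these pathways were read as gene means from 4 lists, without the members. The lists, too, were drawn up with earlier results of these data known. In neurons against uninjured axons, 24 of 28 measured genes of other growth cone proteins were higher in neurons, 0 higher in axons (also 0 at an unadjusted p under 0.05 in limma) and 4 did not pass. Over all genes, 36.9% passed as higher in neurons and 23% as higher in axons, the shares to hold beside each list. The median log2 ratio of the growth cone genes was 2.92, beside 0.22 over all genes. The highest were *Rac1*, a small GTPase of actin dynamics, at 5.81 ± 0.48, and *Dbn1*, which encodes the actin-binding protein drebrin, at 5.46 ± 0.29 (SE, n = 3). The partners and modifiers of the lipid-anchored members were kinase, phosphatase and lipid enzyme genes, the calmodulin gene *Calm2* and a G-protein gene. Of these 27 measured genes, 19 were higher in neurons and 2 in axons, with a median of 1.44. The G-protein gene *Gnao1* (4.37 ± 0.40) and the phospholipase C gene *Plcb1* (4.06 ± 0.23) led them. The protein kinase C gene *Prkcd* (-0.83 ± 0.18) and the myristoyl transferase gene *Nmt2* (-0.77 ± 0.20) were the 2 higher in axons (SE, n = 3).

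Of 11 relatives by protein family, 8 were higher in neurons and 1, *Sprr3*, in axons, with a median of 0.89. The reticulon gene *Rtn4*, which encodes Nogo, reached 5.42 ± 0.38 and the proteolipid gene *Gpm6b* 5.02 ± 0.53. *Sprr3*, of the same family as *Sprr1a*, stood at -1.23 ± 0.29 (SE, n = 3). Of 37 other genes known to rise in injured peripheral neurons, 14 were higher in neurons, 9 in axons and 14 did not pass, with a median of 0.14. Both counts are near the shares over all genes. The calcium channel subunit gene *Cacna2d1* (3.51 ± 0.28) and the vesicle GTPase gene *Rab3a* (3.45 ± 0.37) were highest, and the growth factor gene *Fgf2* (-1.37 ± 0.27) and the annexin gene *Anxa2* (-1.15 ± 0.20) lowest (SE, n = 3). *Stmn4* is in both this list and that of growth cone proteins.

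In regenerating axons the same lists gave 1 call in all. *Crmp1*, a growth cone gene of the collapsin response mediator family, was lower at -1.45 ± 0.26 (SE, n = 3, adjusted p = 0.0430), where 0.689% of all genes passed as lower and 0.0352% as higher. No growth cone gene passed without regenerating array 2, regenerating array 3, uninjured array 2 or uninjured array 6. Without regenerating array 1, 5 passed, and without uninjured array 1, 4 passed. With a reference without error, 13 growth cone genes, 9 partners and modifiers, 3 relatives and 6 injury genes passed as lower. A 2-group fit gave 13, 7, 3 and 6, and a trended, robust eBayes gave 0 in each list. Over all 31042 probe sets, lower calls were then 3707, 2924 and 0, beside 104 in the main fit. At an unadjusted p under 0.05 in limma, 11 of 28 growth cone genes, 6 of 27 partners and modifiers, 3 of 11 relatives and 5 of 37 injury genes were lower, and 2 of the injury genes were higher. Over all genes, 8.77% were lower and 3.67% higher at that limit. The list medians were -0.38, -0.08, -0.11 and -0.01 in that order, beside 0.02 over all genes. The lowest means in these lists, named after their values were seen, did not pass. *Stmn2*, which encodes a microtubule-destabilising growth cone protein, stood at -3.86 ± 1.09, the calmodulin gene *Calm2* at -3.73 ± 1.15 and *Pcp4* at -3.64 ± 0.98 (SE, n = 3).

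**Figure D5:**
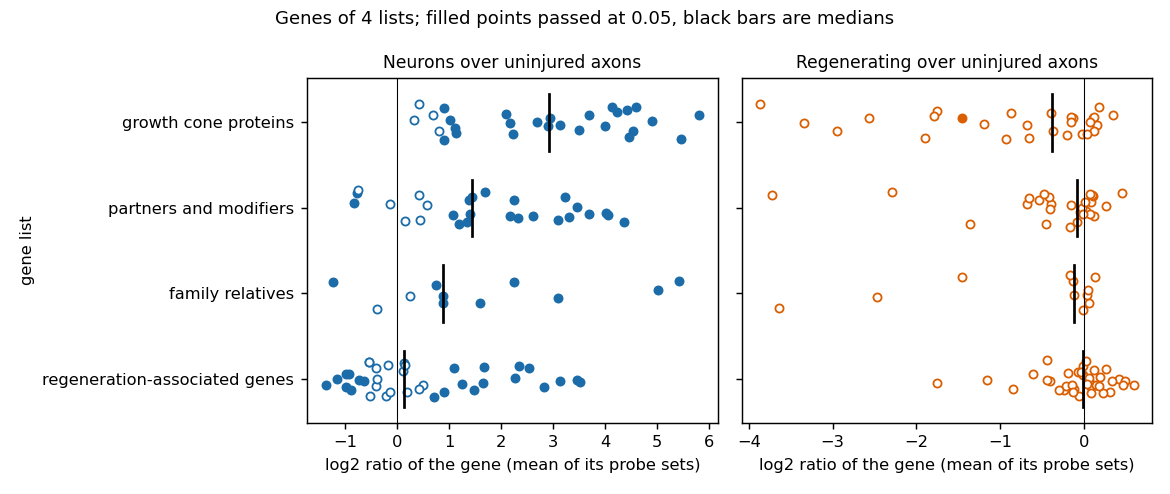
Log2 ratio of each measured gene (mean of its probe sets) of 4 lists, without the 8 members, for neurons (left) and regenerating axons (right) over uninjured axons; filled points passed an adjusted p of 0.05, open points did not, and black bars are list medians. Growth cone genes have a median of 2.92 on the left and -0.38 on the right, where only *Crmp1* is filled.

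Markers of cell types were read the same way. Of 9 neuron markers 7 were higher in neurons and 0 in axons (0 also at an unadjusted p under 0.05), and of 10 astrocyte markers 9 were higher in neurons, with medians of 2.73 and 3.19. Astrocyte markers were thus higher in the neuronal compartment as well. Of 8 oligodendrocyte markers 3 were higher in neurons and 2 in axons. Over all genes, 36.9% passed as higher in neurons and 23% as higher in axons, which the oligodendrocyte counts are near. Higher in axons were 8 of 9 microglia markers, 3 of 7 of fibroblasts and endothelium and 3 of 6 of epithelium, with none higher in neurons in these 3 lists, also at an unadjusted p under 0.05. No marker of any list passed in regenerating axons, where at an unadjusted p under 0.05 in limma 3 were higher and 5 lower. At that limit 3.67% of all genes were higher and 8.77% lower. Ratios give no summed level and do not show which markers were at background, and the part of other cell types in the members' ratios was not tested.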

How the data were processed

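Rat cortical axons and neurons were measured on 13 GeneChip arrays, and the submitters' processing notes name RMA, with no version. The deposited value table holds linear ratios for 31099 probe sets, 57 of them controls. The ratio sets of the uninjured arrays were read from the row medians (tolerance 0.0001). Row medians did not give the denominator of the regenerating and neuron arrays, which was assumed to be uninjured axons. Array columns carry the sample titles. Symbols come from the platform annotation (20826 probe sets with 1 symbol, 436 with several, 9780 with none). All 15 member symbols are the same in RefSeq. Log2 ratios were fitted with limma 3.58.1 (R 4.3.3) over 31042 probe sets and, for lists, over 14217 gene means. Spread came from each group and from uninjured arrays around their ratio set mean, and array 7 stood for a reference with the error of 1 array. P-values were Benjamini-Hochberg adjusted over all features, with a threshold of 0.05. The fit was tested on simulated data. Leaving out each array, a block, other normalisations, floors and probe set rules were tried. The members and lists were chosen with earlier results of these data known. Named genes are all member probe sets, up to 2 genes per list and direction past the threshold in neurons, each list gene past it in regenerating axons, and the 3 nearest patterns of each probe set, of which those of 8 probe sets are given. Outside this rule, *Apc2*, *Eif3f*, *Apc*, *Rpl3*, *Stmn2*, *Calm2* and *Pcp4* were named for their low regenerating values after these were seen. The number of arrays limits the precision.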

Additional observations from a re-analysis of the deposited data

Results flagged for a closer look

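The 6 uninjured values of each of the 15 probe sets were checked for an array far from the others. Were the values independent, chance alone would give such an array in about 1 in 20 groups. *Gap43* 1367930_at stood apart in uninjured array 1, at 0.281, the lowest of the group, with a gap to the next array of 0.688 of the whole range, above the critical value of Dixon's test. *Marcks* 1370949_at stood apart in uninjured array 4, at 2.45, the highest of the group, with a gap of 0.670 of the range. Each ratio set has a median of 1, so the 6 values are not independent of each other, and the rate of 1 in 20 need not hold here.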

How the results depend on the processing

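No member probe set that passed in neurons changed sign under the alternatives tried, but many of these could not change it. The fitted value is the mean of the neuron arrays alone. It therefore stayed the same without any 1 uninjured array, with a reference without error or with a trended, robust eBayes. All neuron arrays of each passing probe set also lay on 1 side of 1, so leaving out 1 of them could not turn the sign. *Basp1* 1375143_at, which did not pass (-0.05), turned to 0.021 with arrays centred on the median, and ran from -0.26 without neuron array 1 to 0.36 without neuron array 3. In regenerating axons, *Marcks* 1389838_at (0.25) turned to -0.02 without regenerating array 1, and *Sprr1a* (-0.00) ran from -0.13 to 0.11. In neurons, 10 member probe sets were higher (9 to 11 leaving out 1 array) and 1 lower (1 in each case). By gene means or the probe set with the highest mean ratio, which count genes, 6 member genes were higher. With a reference without error or a 2-group fit, 2 member probe sets were lower. All probe sets higher in neurons numbered 8820 (8019 to 9832 leaving out 1 array), 5249 by gene means and 5759 by the highest-mean probe set. Those higher in uninjured axons numbered 8523 (7006 to 9199), 12959 with a reference without error, 4526 with only single-symbol probe sets, 3271 by gene means and 2727 by the highest-mean probe set. In regenerating axons, 3 probe sets were higher and 104 lower. These became 3539 and 3707 with a reference without error, 2298 and 2924 in the 2-group fit, and 0 and 0 with a trended, robust eBayes in limma (1231 and 2138 at an unadjusted p under 0.05 in the fit without it). Higher calls were 6 with single-symbol probe sets and 5 by gene means. Leaving out 1 array gave 0 to 17 higher and 0 to 462 lower, with 462 lower without regenerating array 1 and 0 without array 3. The cause was not tested.

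*Gpm6a* passed as higher in neurons with a reference without error (adjusted p = 0.00112), a 2-group fit (0.00175), a pseudocount of 0.1 (0.0438) and a replicate block (0.0114). *Marcks* 1389838_at passed as higher in axons with a reference without error (0.0360) and a 2-group fit (0.0453). The regenerating mean of *Marcks* 1373432_at was -1.54 with the pseudocount.

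Whether the array numbers pair the samples is not stated in the labels. Same-numbered arrays correlated at -0.10 to 0.12 between uninjured axons (arrays 1 to 3) and neurons and at -0.31 to -0.08 between uninjured and regenerating axons. Between regenerating axons and neurons they correlated at 0.13, 0.12 and -0.09. Differently numbered arrays correlated at -0.14 to 0.12, -0.17 to 0.25 and -0.19 to 0.16 in the same order. Each row was centred within its group, and such correlations cannot decide whether same-numbered arrays shared a culture. With the replicate block, 68 probe sets were higher and 600 lower in regenerating axons, and *Gpm6a* was the only member whose call in neurons changed. That fit used only uninjured arrays 1 to 3 and no reference array, so it differed from the main fit in more than the block. The effect of the block alone was not tested.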
